A study of Mus musculus with 12 samples.

Results

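Acetylation of histone H3 at lysine 23 (H3K23ac) was compared with acetylation at lysine 27 (H3K27ac) in endothelial cells isolated from the lungs of wild-type mice. The comparison used 4 of the 12 libraries of the series, 2 replicates per mark. Its regions were the rows of the deposited table with 10 or more counts in at least 2 of these 4 libraries, which held for 9128 of 1192075 rows (0.766%). The wild-type group (WT) is labelled negative for the Cre recombinase. Its counterpart, labelled CSE-KO and Cre-positive, lacks cystathionine gamma-lyase (CSE), an enzyme that makes cysteine from cystathionine, and was used here as a second set of 2 libraries per mark. The sources used here do not give mouse strain, age, the promoter that drives Cre, or whether replicates came from separate animals, so the spread between replicates may be technical. In the CSE-KO libraries Cre and the loss of CSE cannot be told apart.

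Histone acetylation neutralizes the positive charge of lysine and is read by bromodomain proteins. H3K27ac is laid down mainly by the acetyltransferases p300 and CBP and is known for marking active promoters and active enhancers. H3K23ac is an abundant acetylation of the histone tail to which acetyltransferases of the MOZ/MORF family contribute, and it is less used as a map of regulatory elements. H3K4me3, the third mark of the series, is known for active promoters. All were profiled by ACT-seq, in which an antibody held by Protein A brings the Tn5 transposase to chromatin with the mark, so that a count is a sequenced fragment cut near it.

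The WT H3K23ac libraries held 1569853 and 1848702 counts in all, and the WT H3K27ac libraries 1351854 and 1110254. The tested regions took 10.1% and 12.9% of the H3K23ac counts and 7.84% and 9.56% of the H3K27ac counts. Each row is named by a list number and a running number, with neither coordinates nor a gene, so endothelial marker genes were not checked and no sequence is shown. The list number was taken to be that of a library in the labels. In 12 of 12 lists that library had a larger share of its counts there than any other library. A list therefore favours its own library. Rows of the H3K4me3 lists (numbers 5, 6, 11 and 12), named by neither acetylation mark, are given apart: 466 of their 199413 rows were tested.

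The regions seldom reached 10 counts in every library. Of the 9128 regions, 486 (5.32%) reached 10 counts in all 4 libraries and are called shared here. A further 2020 (22.1%) passed through both H3K27ac libraries alone, 1369 (15%) through both H3K23ac libraries alone, 3472 (38.0%) through 1 library of each mark and 1781 (19.5%) through 3 libraries. The count minimum stood for different levels, since 10 counts were 57.8 and 32.5 scaled CPM in the H3K23ac libraries and 116 and 108 in the H3K27ac libraries. Scaled CPM is the usual CPM measure (count over library size), with the library size taken as the counts in tested regions times its TMM factor, a factor edgeR takes from a trimmed mean of the log ratios between libraries. The minimum cut through the bulk of the data: 1918 regions had a second-highest count of exactly 10, and 2741 untested rows one of exactly 9. In each list 42.4% to 76.3% of all rows had no count in the library that the list is numbered for. How reads shared by overlapping rows of different lists were counted is not known. Shared regions may therefore be undercounted, and zeros in the classes below overstated, which could not be checked.

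H3K23ac replicates differed far more from each other than H3K27ac replicates. The H3K23ac libraries had a median count of 13 and 2 over the tested regions and were at 0 in 1988 (21.8%) and 4169 (45.7%) of them. The H3K27ac libraries had median counts of 10 and 11 and were at 0 in 163 (1.79%) and 207 (2.27%). With 0.5 added to each count, the H3K23ac replicates were 4-fold or more apart in 5523 regions (60.5%), with a median distance of 8.89-fold. The H3K27ac replicates were that far apart in 1000 regions (11.0%), with a median of 1.63-fold. The biological coefficient of variation, the spread between replicates beyond counting noise, was 202% for H3K23ac and 42.2% for H3K27ac. In CSE-KO it was 156% and 22.7% over the same regions.

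**Figure D1:**
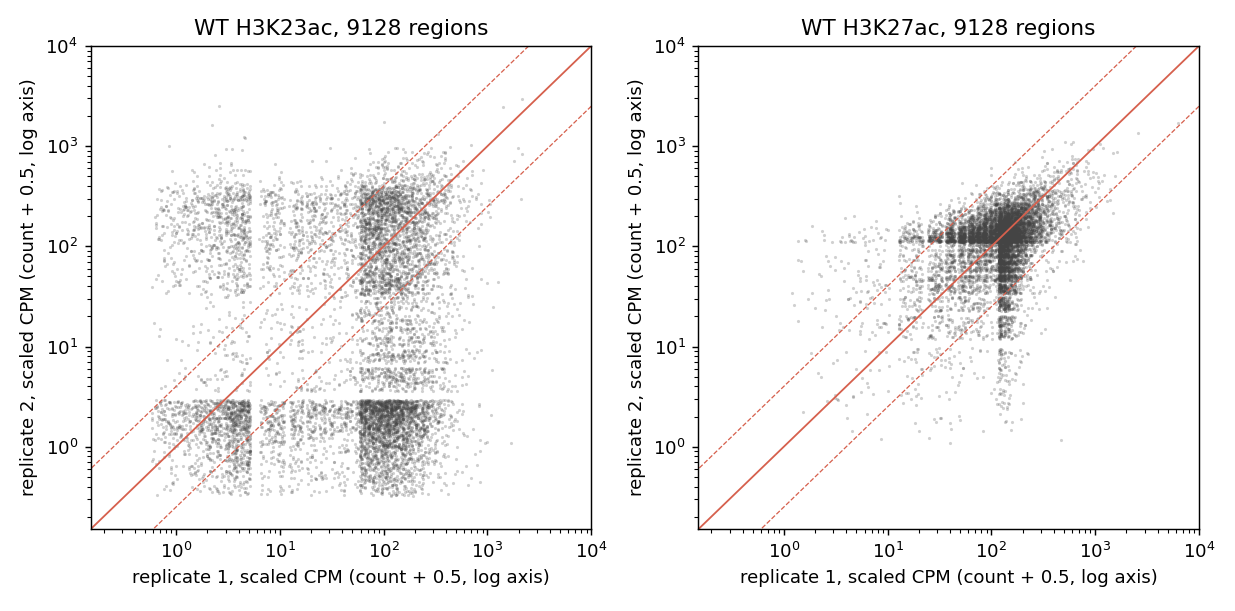
Replicate 2 against replicate 1 of each mark in WT, as scaled CPM with 0.5 added to each count and both axes logarithmic; each of the 9128 points is a region, moved at random by up to 0.4 counts so that equal counts can be seen, the solid line marks equal values and the dashed lines a 4-fold difference. H3K23ac points fill bands along both axes, where 1 replicate is at or near 0, and 60.5% lie 4-fold or more apart, against 11.0% for H3K27ac.

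Much of the H3K23ac spread followed the lists. In rows of the list of WT H3K23ac replicate 1 (1814 regions), replicate 2 was at 0 in 1340 (73.9%). In rows of the list of replicate 2 (2598 regions), replicate 1 was at 0 in 723 (27.8%). The spread was also present where neither WT library had named the region. In the 3918 regions of the CSE-KO H3K23ac and H3K27ac lists, 2050 had 10 or more counts in H3K23ac replicate 1, and replicate 2 was at 0 in 925 of these (45.1%). In the other direction, replicate 1 was at 0 in 67 of the 848 regions (7.9%) with 10 or more counts in replicate 2, so most of these zeros were in replicate 2. For H3K27ac the corresponding figures were 7 of 2875 (0.243%) and 8 of 3193 (0.251%). In the H3K4me3 lists the H3K23ac replicates were closer, with a median distance of 3.18-fold and a coefficient of variation of 121%, against 1.56-fold and 35.5% for H3K27ac. From the lowest to the highest of 4 bins of mean count, the median distance of the H3K23ac replicates was 6.18, 26.7, 12.5 and 3.93-fold. In the 2257 regions of the highest bin the H3K27ac replicates were a median of 1.68-fold apart. There 49.5% of regions still had H3K23ac replicates 4-fold or more apart. Spearman's rho between replicates was -0.362 for H3K23ac and 0.509 for H3K27ac in that bin, a description, since the bins use the same counts.

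The levels of the shared regions come from the counts that chose them and are given as a description. In the 486 shared regions H3K23ac replicate 1 had a median of 35 counts and replicate 2 one of 67, while H3K27ac had medians of 15 and 18. As CPM of the whole library (count over all its counts) these were 22.3 and 36.2 for H3K23ac and 11.1 and 16.2 for H3K27ac, so that both H3K23ac medians lay above both H3K27ac medians. The median log2 fold change of H3K27ac over H3K23ac was -0.24 in shared regions, beside 0.69 over all tested regions, with a median standard error of 1.01. Within the 486 shared regions 103 had both H3K23ac libraries above both H3K27ac libraries on scaled CPM, 97 the opposite, and the rest overlapped. Over all 9128 regions the first held for 1214 (13.3%) and the opposite for 3259 (35.7%). Replicates ranked these regions differently: Spearman's rho between replicates over the 486 regions was 0.129 for H3K23ac and 0.491 for H3K27ac, a description, since regions are not independent replicates. Of the shared regions 232 came from the list of WT H3K23ac replicate 2 and 27 from the H3K4me3 lists. The number depends on the minimum and on single libraries: it was 1788 at a minimum of 5 counts, 80 at 20, 269 with minimums scaled to depth, and 1394 without H3K23ac replicate 2. It was 776 without H3K23ac replicate 1 and 874 without H3K27ac replicate 1.

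The strongest shared regions were high for all 3 marks. The region with the highest level in its lowest library, from the list of WT H3K23ac replicate 1, had 371 and 259 H3K23ac counts and 544 and 156 H3K27ac counts. Its scaled CPM was 1493 ± 921 for H3K23ac and 3987 ± 3257 for H3K27ac (SD, n = 2 each), and the marks overlapped (edgeR adjusted p = 0.611). It had 192 and 84 H3K4me3 counts in WT. A region of the list of CSE-KO H3K23ac replicate 1 had 244 and 761 H3K23ac counts, 50 and 98 H3K27ac counts, and 200 and 381 H3K4me3 counts in WT. H3K23ac was 1941 ± 751 and H3K27ac 818 ± 339 scaled CPM (SD, n = 2 each), without overlap but short of the threshold (log2 fold change -1.25 with a standard error of 0.56, edgeR adjusted p = 0.415). The third, from the list of WT H3K23ac replicate 2, had 374 and 899 H3K23ac counts against 57 and 51 for H3K27ac. That is a 4.2-fold higher H3K23ac level on scaled CPM (log2 fold change -2.07 with a standard error of 0.39, edgeR adjusted p = 0.148). In CSE-KO it had 426 and 148 H3K23ac counts and 126 and 53 H3K27ac counts, again higher in H3K23ac.

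The class of regions dominated by H3K27ac was larger than that dominated by H3K23ac, with an imbalance that the filter and the scaling bear on. A region was called dominated where the lower replicate of a mark had at least 4 times the scaled CPM of the higher replicate of the other, with 0.5 added to each count. By this rule 1870 regions (20.5%) were H3K27ac-dominated and 130 (1.42%) H3K23ac-dominated. The ratios nearest the limit were 4.03 inside and 3.98 outside for H3K27ac, and 4.02 and 3.99 for H3K23ac. Without a minimum ratio, H3K27ac lay above H3K23ac in both replicates in 3259 regions (35.7%), H3K23ac above H3K27ac in 1214 (13.3%), and the marks overlapped in 4655 (51.0%). The rule asks for both replicates of a mark to be high, and H3K23ac reached 10 counts in both replicates in 2438 regions, against 3704 for H3K27ac. Of the H3K27ac-dominated regions 1847, and of the H3K23ac-dominated regions all 130, passed the filter only through the mark in which they were high. Since 10 counts are a higher scaled CPM for H3K27ac, none of the 2020 regions that passed through H3K27ac alone could overlap, while 394 of the 1369 that passed through H3K23ac alone did. The 2 counts are therefore a description of the classes and no support for a difference between the marks. Scaling by total counts gave 1662 and 351 dominated regions, and 2419 and 1825 regions without overlap.

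**Figure D2:**
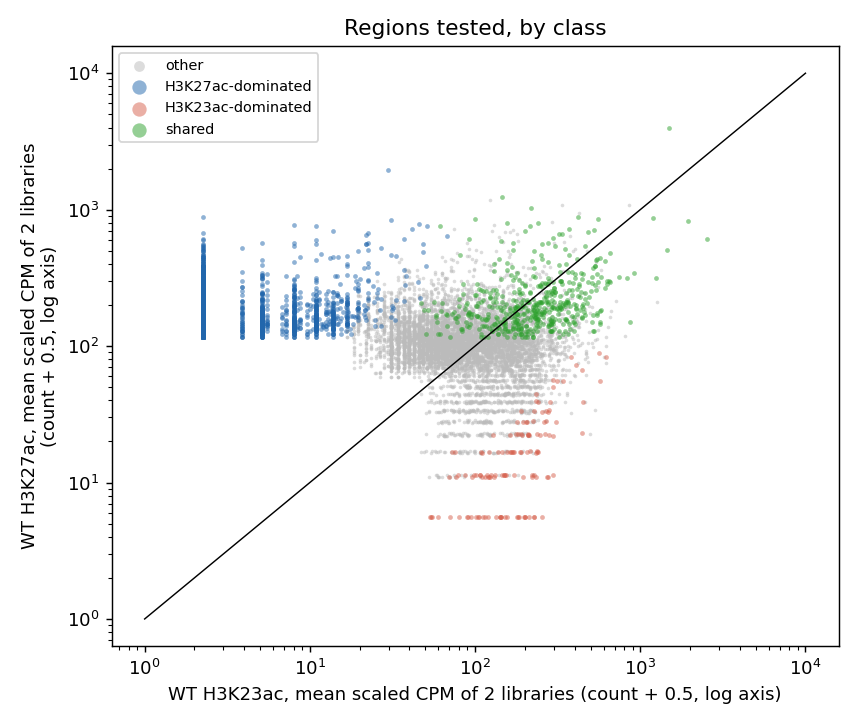
Mean scaled CPM of the 2 WT H3K27ac libraries against that of the 2 WT H3K23ac libraries, with 0.5 added to each count and both axes logarithmic; each point is 1 of 9128 regions, coloured by class, and the line marks equal values. H3K27ac-dominated regions (1870) sit at the left edge where H3K23ac is at or near 0, H3K23ac-dominated regions (130) lie at the bottom, and 486 shared regions lie around the line; 2 regions are both shared and H3K27ac-dominated and are drawn as shared.

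The values that chose the H3K27ac-dominated regions were as follows. Both H3K27ac libraries had a median of 13 counts in them, with quartiles of 11 and 18 in replicate 1 and 11 and 17 in replicate 2. Both H3K23ac libraries had a median of 0, and 1094 of the 1870 (58.5%) had no H3K23ac count in either. These are all the tested regions with none (12.0% of 9128), and the low H3K23ac follows from the rule. Of these regions 835 came from the list of the deepest library (CSE-KO H3K27ac replicate 1) and 221 from the lists of the compared H3K27ac libraries (100 and 121). Another 649 came from the CSE-KO H3K23ac lists (258 and 391), regions that a CSE-KO H3K23ac library had named. The region of lowest p, peak9_189891, had 73 and 84 H3K27ac counts and no H3K23ac count in either library. Its H3K27ac level was 875.5 ± 44.5 scaled CPM (SD, n = 2). This is at least 140-fold higher than H3K23ac, taken at a floor of 3 counts over its 2 libraries (edgeR adjusted p = 0.148). The next, peak10_117495, had 56 and 60 H3K27ac counts and 4 and 5 H3K23ac counts. Its levels were 648 ± 0.238 and 19.7 ± 4.86 scaled CPM (SD, n = 2 each). The log2 fold change was 5.00 (standard error 0.91, edgeR adjusted p = 0.148). In both regions the marks did not overlap and the replicates of each mark were close, which a choice by lowest p favours.

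H3K23ac-dominated regions were few and leaned on the H3K23ac lists. H3K23ac replicate 1 had a median of 21 counts in the 130 regions (quartiles 15 and 32) and replicate 2 one of 65 (41 and 91.8). Both H3K27ac libraries had a median of 1 count, and 32 of the 130 had none in either. Rows of the 2 WT H3K23ac lists made up 100 of them (21 and 79), which those libraries had named, and 30 came from other lists. The 2 regions of lowest p in this direction were peak12_29275 and peak2_56894. The first, from an H3K4me3 list, had 10 and 14 H3K23ac counts and none for H3K27ac, or 51.6 ± 8.71 scaled CPM (SD, n = 2). H3K23ac was at least 3.08-fold higher there, with H3K27ac set to its floor. The second had 11 and 13 counts against none, or 52.9 ± 15.1 scaled CPM (SD, n = 2), at least 3.16-fold higher. Both had an edgeR adjusted p of 0.148. The floor of the H3K27ac libraries limits these ratios.

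In edgeR's quasi-likelihood test no region passed the threshold of 0.05, 0 of 9128 (0%), in either direction. At an unadjusted p under 0.05 there were 1582 regions (17.3%), 1477 higher in H3K27ac (16.2%) and 105 higher in H3K23ac (1.15%), and the lowest adjusted p was 0.148. The fit gave both marks 1 spread, a biological coefficient of variation of 119%, which lies between those of the marks. The tools differed: the DESeq2 Wald test called 1081 regions higher in H3K27ac (12.1% of the 8951 with an adjusted p) and 1 higher in H3K23ac. Of the 1081, 973 (90.0%) had no H3K23ac count in either library, and all were H3K27ac-dominated. The limma voom fit used weights that let the marks differ in spread (0.174 for H3K23ac and 5.74 for H3K27ac). It called 1776 regions higher in H3K27ac (19.5%) and 2 higher in H3K23ac, and 1074 of its H3K27ac calls were also called by DESeq2. Of its H3K27ac calls 1710 (96.3%) were H3K27ac-dominated, as were all 1477 regions toward H3K27ac at an unadjusted edgeR p under 0.05. Of the 1870 regions of that class, 1847 passed the filter only through H3K27ac. The direction of such calls is therefore no support for a difference between the marks. Without H3K23ac replicate 1 edgeR called 5732 regions, and without replicate 2 it called 2951. In those fits the lone H3K23ac library is assumed to vary like the H3K27ac libraries. Without H3K27ac replicate 1 or 2 it called 0, with 36 and 99 at an unadjusted p under 0.05. A model of 8 libraries, WT and CSE-KO with genotype as a term, called 896 regions, 866 higher in H3K27ac and 30 higher in H3K23ac. The scaling set the level of all fold changes: their median was 0.69 with TMM, 0.94 with DESeq2 size factors and -0.03 with total counts.

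**Figure D3:**
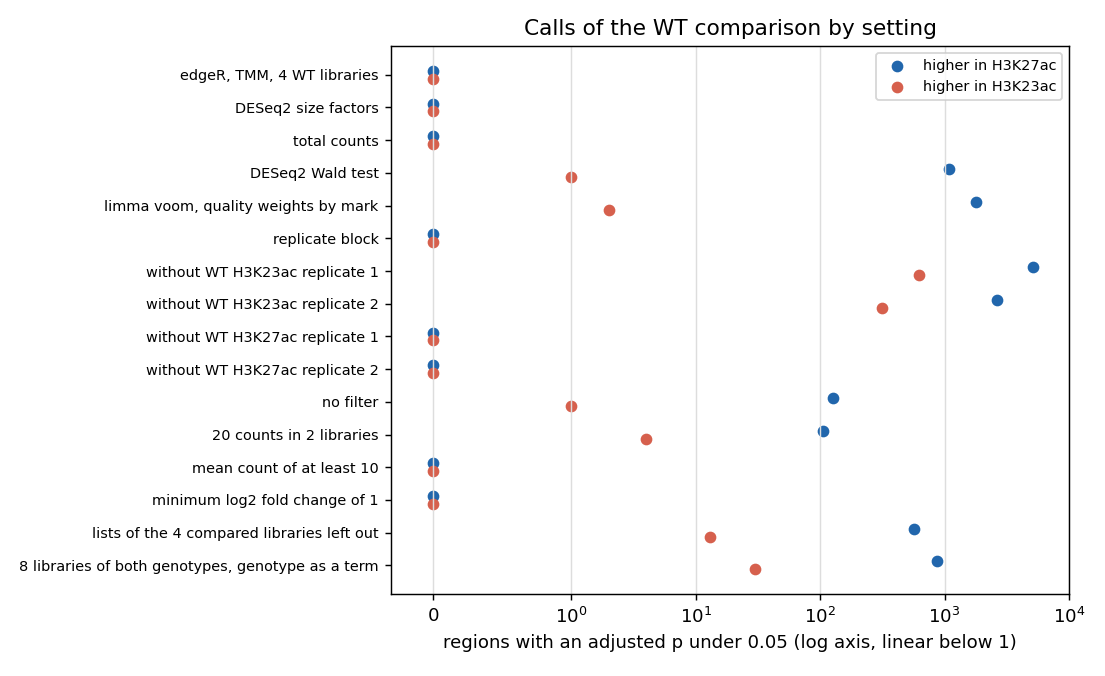
Number of regions with an adjusted p under 0.05 in the WT comparison, by setting (rows) and direction (colour), on an axis that is logarithmic above 1 and linear below. The edgeR fit of the 4 libraries gave 0 calls. The DESeq2 Wald test (1081 and 1) and limma voom (1776 and 2) gave calls nearly all higher in H3K27ac, a direction that the count filter favours.

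The H3K4me3 lists differed from the whole set in which mark more regions passed through. Of their 466 regions, 150 (32.2%) passed through both H3K23ac libraries alone and 83 (17.8%) through both H3K27ac libraries alone, and 27 (5.79%) were shared. H3K27ac lay above H3K23ac without overlap in 129 regions (27.7%) and H3K23ac above H3K27ac in 118 (25.3%). This order depends on the scaling: with total counts it was 97 (20.8%) against 187 (40.1%). Dominated regions numbered 72 for H3K27ac (15.5%) and 12 for H3K23ac (2.58%), or 61 and 40 with total counts. The median log2 fold change was 0.14 with TMM and -0.57 with total counts, in both cases below that of all tested regions. By edgeR 0 of the 466 passed, with 67 at an unadjusted p under 0.05, 52 higher in H3K27ac and 15 higher in H3K23ac. DESeq2 called 36 of the 431 with an adjusted p and limma voom 65 of the 466, all higher in H3K27ac. The limit from the filter given above holds for these calls too. Over all lists such calls made up 12.1% of the regions with a DESeq2 adjusted p, and 19.5% of tested regions with limma voom.

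Single regions of these lists show how low the counts are. Besides peak12_29275, the region of lowest p toward H3K23ac came from the list of WT H3K4me3 replicate 2. It had 11 and 12 H3K23ac counts, no H3K27ac count, and 8 and 11 H3K4me3 counts in WT, with H3K23ac at least 3.06-fold above the floor (edgeR adjusted p = 0.148). Toward H3K27ac, 3 regions tied with 10 and 10 H3K27ac counts and no H3K23ac count, at least 17.9-fold above the floor (edgeR adjusted p = 0.148). The 2 taken from the tie both came from the list of WT H3K4me3 replicate 1, and had 5 and 0 H3K4me3 counts and 6 and 0 H3K4me3 counts in WT. In each of these regions the acetylation marks did not overlap, which a choice by lowest p favours. In both tied regions the H3K4me3 replicates disagreed on whether there was any count.

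H3K4me3 counts, which did not enter the count filter, were higher in H3K23ac-dominated than in H3K27ac-dominated regions. H3K4me3 libraries had named 12 of the 130 H3K23ac-dominated and 72 of the 1870 H3K27ac-dominated regions. The classes also differ in level, with median counts in the high mark of 21 and 65 against 13 and 13. Widths of regions are not known, and what these differences add to the contrast was not tested. In CPM of the whole library, the 4 H3K4me3 libraries had a mean of 24.2 to 28.9 in H3K23ac-dominated regions and of 3.24 to 4.61 in H3K27ac-dominated regions, beside 15.7 to 17.9 over all tested regions. Shared regions had the highest mean, 54.3 to 62.0. Each of the 4 libraries gave this order of means. In WT H3K4me3 replicate 2 the medians went the other way, with 6.5 counts in shared and 7.5 in H3K23ac-dominated regions. There 44.2% of shared and 47.7% of H3K23ac-dominated regions reached 10 counts. In each other H3K4me3 library both values were higher in shared regions. Means of shared regions lay far above their medians, at 54.3 against 11.5 CPM in WT replicate 2, so regions with high counts weigh on them. Regions are not replicates of a condition, and the order was not tested. No H3K4me3 count was found in any of the 4 libraries for 509 H3K27ac-dominated regions (27.2%), 22 H3K23ac-dominated (16.9%) and 14 shared regions (2.88%). All 4 reached 10 counts in 35 (1.87%), 35 (26.9%) and 182 (37.4%). Over all tested regions these shares were 20.2% and 14.1%. In the 30 H3K23ac-dominated regions outside the WT H3K23ac lists, 12 (40%) had 10 or more in all 4 H3K4me3 libraries, though 12 of the 30 were named by an H3K4me3 library. The H3K4me3 libraries were the shallowest, with 396441 to 563755 counts, so a 0 there leaves room for a low level.

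**Figure D4:**
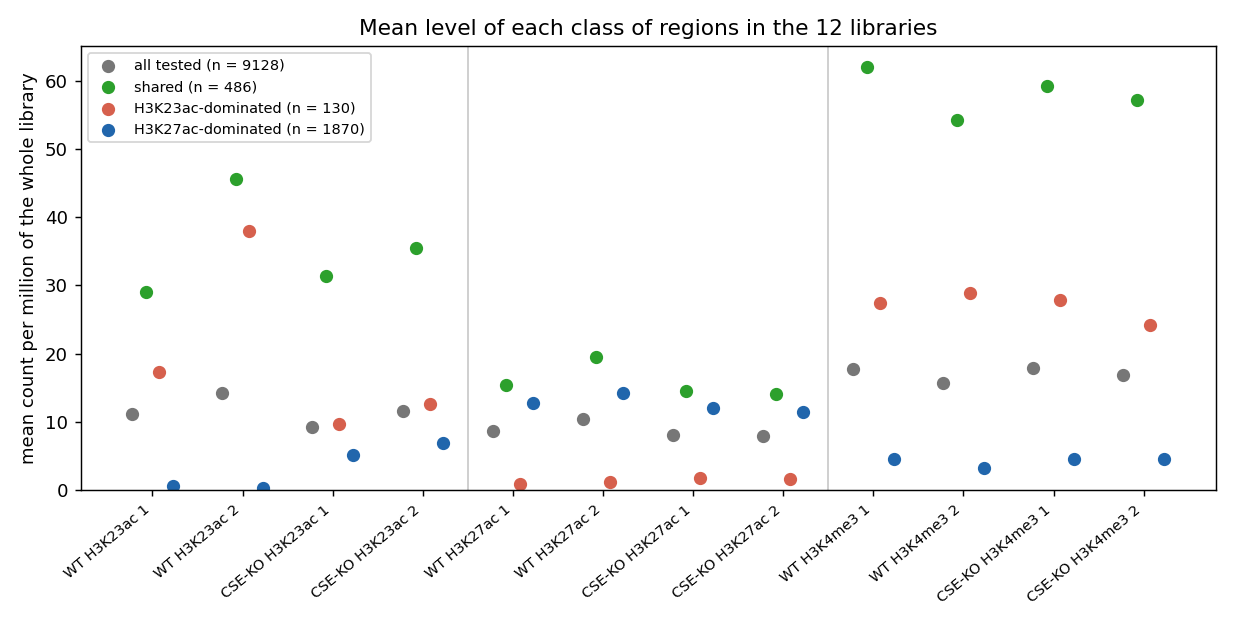
Mean CPM of the whole library in each of the 12 libraries, for all tested regions and the 3 classes, on a linear axis from 0; a point is the mean over the regions of a class in 1 library. The classes were chosen on the 4 WT H3K23ac and H3K27ac libraries, and in the 4 H3K4me3 libraries shared regions (54.3 to 62.0) lie above H3K23ac-dominated regions (24.2 to 28.9) and those above H3K27ac-dominated regions (3.24 to 4.61).

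Rank correlations with H3K4me3 across single regions were also higher for H3K23ac than for H3K27ac. In the 466 tested regions of the H3K4me3 lists, Spearman's rho of a WT H3K23ac library with a WT H3K4me3 library ran from 0.41 to 0.527 over the 4 pairs, and that of a WT H3K27ac library from -0.119 to -0.029. The WT H3K23ac replicates had a lower rho with each other, 0.369, and the WT H3K27ac replicates one of 0.557. Over all 9128 tested regions rho was 0.0789 between the H3K23ac replicates, against 0.278 to 0.375 with WT H3K4me3. This limits a reading of these values as a trait of the mark. Regions are not independent, and all values of a library share its depth. Between the H3K23ac and H3K27ac libraries rho ran from -0.436 to -0.0915 in the 466 regions. The filter itself favours such values, since a region low in a mark has to be high in the other to pass. Over all 84531 regions of the H3K4me3 lists with a count in any library, H3K23ac and H3K27ac libraries had a rho of 0.0822 to 0.183. There the range with H3K4me3 was 0.16 to 0.295 for H3K23ac and 0.0872 to 0.159 for H3K27ac, and replicates reached 0.264 and 0.32.

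The CSE-KO libraries had H3K27ac above H3K23ac in most H3K27ac-dominated regions, but H3K23ac above H3K27ac in a minority of H3K23ac-dominated regions. Their counts did not enter the count filter, but lists of these libraries had named 3918 of the 9128 regions. Over all 9128 regions, H3K27ac lay above H3K23ac without overlap in CSE-KO in 54.5% and H3K23ac above H3K27ac in 12.4%. Of the 1870 H3K27ac-dominated regions 1316 (70.4%) had H3K27ac above in CSE-KO and 39 (2.09%) had H3K23ac above. By the ratio of 4, H3K27ac was above in 1030 (55.1%), beside 37.8% of all regions. Of the 130 H3K23ac-dominated regions 36 (27.7%) had H3K23ac above in CSE-KO, but 47 (36.2%) had H3K27ac above. By the ratio of 4, H3K23ac was above in 16 (12.3%), beside 1.51%. Both CSE-KO H3K23ac libraries were at 0 in 39 of the 130 and reached 10 counts in 31. The median log2 fold change of H3K27ac over H3K23ac in CSE-KO was 4.15 in H3K27ac-dominated, -0.30 in H3K23ac-dominated and -0.40 in shared regions, beside 1.64 over all regions. Fitted folds of regions at 0 in a mark depend on an added count. With those regions at their bound the medians were 3.20, -0.78, -0.40 and 1.43, over 1869, 116, 486 and 9077 regions.

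Which list had named a region bore on this comparison too. The CSE-KO H3K27ac lists held 889 of the 1870 H3K27ac-dominated regions, and 859 of those (96.6%) had H3K27ac above in CSE-KO. These 859 made up most of the 1316, and the share over all tested regions of those lists was not counted. Outside the CSE-KO H3K23ac and H3K27ac lists, 311 of 332 H3K27ac-dominated regions (93.7%) had H3K27ac above H3K23ac in CSE-KO, beside 65.3% of all 5210 such regions. H3K23ac lay above in 28 of 112 H3K23ac-dominated regions (25%), beside 9.9%, and H3K27ac above in 44 (39.3%). Of the 30 H3K23ac-dominated regions outside the WT H3K23ac lists, 12 (40%) had H3K23ac above in CSE-KO and 7 (23.3%) H3K27ac above, with 17 of the 30 from the CSE-KO H3K23ac lists (6 and 11). In the H3K4me3 lists the counts were 66 of 72 (91.7%, beside 40.8% of all 466) for H3K27ac and 4 of 12 (33.3%, beside 27.7%) for H3K23ac. H3K27ac lay above in as many of those 12, 4 (33.3%). In the CSE-KO H3K23ac lists, by contrast, 146 of 649 H3K27ac-dominated regions (22.5%) had H3K27ac above, beside 12.8% of all 2475 regions there. Their median log2 fold change in CSE-KO was 0.13, beside -0.53 for all regions of those lists. Shared regions reached 10 counts in all 4 CSE-KO acetylation libraries in 247 of 486 (50.8%), beside 10.3% of all tested regions.

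**Figure D5:**
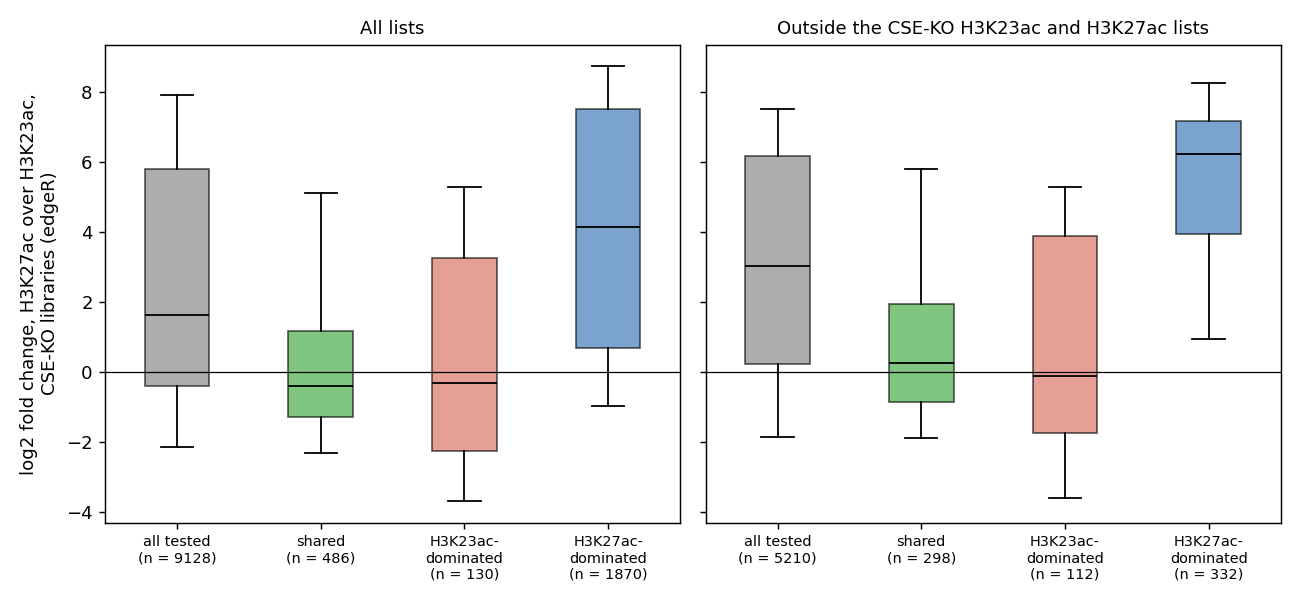
Log2 fold change of H3K27ac over H3K23ac in the CSE-KO libraries (edgeR) for all tested regions and the 3 classes chosen in WT, for all lists (left) and outside the lists of the CSE-KO libraries of both marks (right); boxes span the quartiles, the line is the median and whiskers reach the 5th and 95th percentiles of regions. H3K27ac-dominated regions lie highest, with a median of 4.15 on the left, while H3K23ac-dominated regions lie on both sides of 0, with a median of -0.30; folds of regions at 0 in a mark depend on the count the fit adds.

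Tested on their own, the CSE-KO libraries gave 2729 regions past the threshold in edgeR, 2619 higher in H3K27ac (28.7%) and 110 higher in H3K23ac (1.21%), with a lowest adjusted p of 0.0414. Of the 1870 H3K27ac-dominated regions 842 (45.0%) were among the first and 1 among the second. For the 130 H3K23ac-dominated regions these were 6 (4.62%) and 10 (7.69%). Of the 842, 608 came from the CSE-KO H3K27ac lists (68.4% of the 889 H3K27ac-dominated regions there). Another 22 came from the CSE-KO H3K23ac lists (3.39% of 649, beside 2.79% of all 2475). The other 212 lay outside both (63.9% of 332, beside 33.8% of all 5210). Both H3K27ac regions named above come from the lists of the CSE-KO H3K27ac libraries, peak9_189891 from that of replicate 1 and peak10_117495 from that of replicate 2, which favour those libraries. The region peak9_189891 passed, with no count in either CSE-KO H3K23ac library and 343 and 67 H3K27ac counts, at least 120-fold higher (edgeR adjusted p = 0.0414). So did peak10_117495, with 2 and 3 H3K23ac counts and 187 and 86 H3K27ac counts (log2 fold change 5.83, standard error 0.7, edgeR adjusted p = 0.0414). The H3K23ac region peak12_29275 had 0 and 3 H3K23ac counts and 3 and 1 H3K27ac counts in CSE-KO (edgeR adjusted p = 0.906), and peak2_56894 had none for H3K23ac and 5 and 0 for H3K27ac (edgeR adjusted p = 0.24). Calls were 5 without CSE-KO H3K27ac replicate 1, 11 without replicate 2, 6318 without CSE-KO H3K23ac replicate 1 and 6820 without replicate 2. Whether the difference between marks itself differed between genotypes was tested as an interaction in the 8 libraries: edgeR called 0 of 9128 regions, with 933 at an unadjusted p under 0.05 and a lowest adjusted p of 0.466, and DESeq2 called 17, with 1352.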

How the data were processed

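Values in the table the authors deposited are raw counts, whole numbers per region in each library. The submitters' processing notes name Subread, edgeR (4.0.16), R (4.3.3), ChIPseeker (1.38.0) and 2 builds, GRCm39 and mm10, without saying what each was used for. How reads were aligned, regions called, duplicates handled and reads shared by overlapping regions counted was not given to this work. Reads lost or split between overlapping rows of different lists could not be checked.

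Samples were grouped by their titles. Regions with 10 or more counts in at least 2 of the 4 WT H3K23ac and H3K27ac libraries were tested by the quasi-likelihood functions glmQLFit and glmQLFTest of edgeR 4.0.16 (TMM, two-sided, Benjamini-Hochberg over all 9128 regions, threshold 0.05) in R 4.3.3. Fold changes are H3K27ac over H3K23ac, and the standard error is the absolute log2 fold change over the square root of F. The same regions were tested in the CSE-KO libraries. DESeq2 1.42.0, limma 3.58.1, other scalings and filters and left-out libraries were alternatives, and left-out fits kept the same regions. The code was tested on simulated counts. Named regions are the 2 of lowest p per direction, over all lists and in the H3K4me3 lists (these by list), and the 3 shared regions with the highest level in their lowest library. Summaries used Python 3.11.15, pandas 2.3.3 and numpy 2.4.6. The comparison, its lists and classes were chosen with earlier results of these data known. The floor of 3 counts, over the libraries of a group, covers counting error alone, as PCR reads without molecular identifiers are not independent. Replicates differed by more than counting noise (chi-square per degree of freedom 26.8 for H3K23ac and 2.77 for H3K27ac) and were kept as separate samples.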

Additional observations from a re-analysis of the deposited data

How the results depend on the processing

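The count of 0 in the WT edgeR test held with DESeq2 size factors, total counts, a minimum log2 fold change of 1 and a minimum mean count of 10. The last is a different set of 26137 rows in place of 9128, since a row can reach that mean through 1 library alone. It did not hold with the DESeq2 Wald test (1082 regions), limma voom (1778), no filter (128), 20 counts in 2 libraries (110), the lists of the 4 compared libraries left out (586) or 8 libraries with genotype as a term (896, chosen after seeing the data). For the H3K4me3 lists these settings gave 36, 65, 5, 7 and, for the 8 libraries, 41 in place of 0, and a fit on those lists alone gave 0, with 96 at an unadjusted p under 0.05. Their calls with the lists of the 4 compared libraries left out were not counted. The regions of the H3K4me3 lists described singly for their low p all passed there (edgeR adjusted p of 0.023 to 0.0238). With libraries left out the WT count ran from 0 to 5732 and that of the H3K4me3 lists from 0 to 247. The CSE-KO count of 2729 was 1771 with total counts, 140 with a replicate block and 5 to 6820 with libraries left out. Shared regions numbered 1788 at a minimum of 5, 80 at 20, 269 with minimums scaled by depth and 681 to 1394 with libraries left out. H3K23ac-dominated regions numbered 461 at a ratio of 2, 36 at 8, 351 with total counts and 246 to 455 with libraries left out. H3K27ac-dominated regions ran from 1958 to 5076 with libraries left out, and stayed within 1.5 times of 1870 under the other settings. Causes were not tested.

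The replicate numbers pair no libraries in the labels, and the deviations of same-numbered H3K23ac and H3K27ac libraries had a correlation of 0.0094 over the tested regions and of 0.121 over those of the H3K4me3 lists. With the replicate block the WT comparison gave 0 calls (edgeR, 271 at an unadjusted p under 0.05) and 0 in the H3K4me3 lists (15). Among 137 refits of the 10 regions described singly, 105 kept direction without passing the threshold and 31 kept direction and passed it. In 1 the direction changed. There the shared region of the CSE-KO H3K23ac replicate 1 list had a log2 fold change of 0.10 with a minimum mean count of 10. DESeq2 gave no adjusted p to peak12_29275, peak2_56894 and the region of the WT H3K4me3 replicate 2 list. With the 8 libraries their log2 fold changes were -1.92, -0.80 and -0.24, in place of -6.11, -6.14 and -6.10. A count of 0 leaves a floor of 16.7 scaled CPM for H3K27ac and 6.24 for H3K23ac, values that rest on the TMM scaling as well as on depth.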

Other observations

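Many rows had no count in the library whose number their list carries. The share was 42.4% and 47.2% in the lists of the WT H3K23ac libraries and 76.3% and 75.5% in those of the WT H3K27ac libraries. Of the rows of the WT H3K23ac lists 1.23% and 3.8% were tested, against 0.164% and 0.145% of those of the WT H3K27ac lists.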
